A study of Homo sapiens with 16 samples.

Results

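The GIMAP genes (GTPases of immunity-associated proteins) form a cluster on human chromosome 7. The 7 genes described here, GIMAP1, GIMAP2, GIMAP4, GIMAP5, GIMAP6, GIMAP7 and GIMAP8, were found by their symbols in the array annotation, among 19738 genes measured. They were followed across 16 established human T-ALL lines, grown from leukemias of developing T cells (T-cell acute lymphoblastic leukemia). Untreated cultures of ALL-SIL, CCRF-CEM, DU528, HSB-2, JURKAT, KOPT-K1, LOUCY, MOLT-16, MOLT-4, P12-ICHIKAWA, PEER, PF-382, SKW-3, SUP-T11, SUP-T13 and TALL-1 were grown for 24 hours, and total RNA of each was measured on 1 Affymetrix U133 Plus 2.0 array. All lines form 1 group that lacks a control and replicate arrays, so the properties of a line, its culture and its array cannot be told apart and no difference between lines has a replicate error.

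GIMAP proteins are GTP-binding proteins, related to the septins, that are made mainly in lymphocytes and sit on membranes inside the cell. They are known for their part in the survival of T cells. Loss of Gimap5 in rats and mice leaves few T cells, and mouse Gimap1 is needed to keep mature T and B cells in the body. Human GIMAP2 assembles on lipid droplets and GIMAP7 pairs with it to speed GTP hydrolysis, GIMAP6 binds a protein of the autophagy machinery, mouse Gimap4 hastens the death of T cells, and GIMAP8 carries several GTP-binding domains in 1 chain.

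The levels below are intensities on the deposited linear scale. The median of all probe sets and lines was 42.3, which serves here as the level near background. A value of at least 4 times that median, 169.1, is called high. Spreads and correlations used log2(intensity + 16), with each gene represented by the probe set of highest mean among those naming it alone. The 12 poly-A spike probe sets, RNAs added in fixed amounts, had a median SD of 0.23 log2 units over the arrays. A step between neighbouring lines smaller than that SD was read as no order between those 2 lines. The SD is of single arrays, whereas a step compares 2 of them, so a larger step does not by itself set an order. This SD covers labelling and the array, and the spread between cultures of a line is not known. Array medians lay between 37.6 and 45.0, and the Pearson correlation between arrays lay between 0.889 and 0.962.

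Promoters of the cluster share sequence, and the stretches in common are shown first. All 7 genes were matched to a promoter window of RefSeq (GRCh38.p14), from 250 bases before the start of the gene to 50 after it. GIMAP6 lies on the minus strand and the other 6 on the plus strand. The longest run of letters common to any 2 of these windows had 17 bases, in GIMAP7 and GIMAP2 on opposite strands, and 14 bases of it also stand in GIMAP1. The 100 bases before the start of these 3 genes follow, 5′ to 3′ on the strand of the gene, with the 14-base run or its reverse complement in capitals. GIMAP4 is added as a member without that run, with the ETS core CTTCCT in capitals.
GIMAP7 (chr7:150514772-150514871, plus strand): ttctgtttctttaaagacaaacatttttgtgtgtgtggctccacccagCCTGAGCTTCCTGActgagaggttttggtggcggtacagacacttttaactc
GIMAP1 (chr7:150716513-150716612, plus strand): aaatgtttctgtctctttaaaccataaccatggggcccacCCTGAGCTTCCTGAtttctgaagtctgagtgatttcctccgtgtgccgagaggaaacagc
GIMAP2 (chr7:150685606-150685705, plus strand): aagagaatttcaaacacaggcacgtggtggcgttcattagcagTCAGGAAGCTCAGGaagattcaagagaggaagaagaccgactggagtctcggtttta
GIMAP4 (chr7:150567290-150567389, plus strand): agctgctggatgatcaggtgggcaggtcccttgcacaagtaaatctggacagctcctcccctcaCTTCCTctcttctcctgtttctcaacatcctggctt
The run CCTGAGCTTCCTGA ends 39 bases before the start of GIMAP7 and 47 bases before the start of GIMAP1. Its reverse complement TCAGGAAGCTCAGG ends 44 bases before the start of GIMAP2. On either strand, the run was found in 3 of 34943 promoter windows, 0.00859% of them, and all 3 are GIMAP genes. It was chosen after the windows had been compared, so its rarity elsewhere is a description. It contains CTTCCT, the reverse complement of AGGAAG, a core bound by ETS factors.

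That core, AGGAAG on either strand, was present in 7 of 7 GIMAP windows, against 33.7% of all windows. All matches in the 7 windows lay between 65 bases before and 6 bases after the start of the gene. TGTGGT, bound by RUNX factors, and AGATAA, bound by GATA factors, were in 0 of 7, with 13.1% and 10.4% of all windows holding them. CAGATG, an E-box bound by TAL1, was in the windows of GIMAP6 and GIMAP2, against 14.7% of all. TGGGAA, bound by RBPJ, the DNA-binding partner of NOTCH, was in GIMAP1 and GIMAP5, against 24.0% of all. CAACTG, bound by MYB, was in GIMAP2, against 11.4% of all. A match of letters is not a binding site, and no binding was measured.

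Most members were strongly expressed in most lines and close to background in a few. The SD over lines was above 1 log2 unit for 6 of the 7 genes, against 12.5% of all genes measured, and their median SD was 2.20, against 0.35 over all genes. Likewise 6 of the 7 had at least 1 line at or below the table median and at least 1 high line, against 14.4% of all genes. Of the 112 values of a member in a line, 65 were high and 34 were at or below the table median. Of those 34, 11 came from the only probe set of GIMAP5 alone, which could not be resolved. The shares of such values over all genes were not counted. GIMAP2, GIMAP6, GIMAP7 and GIMAP1 were high in 13 or 14 of the 16 lines, whereas GIMAP4 was high in 6 and GIMAP8 in 5. GIMAP5 had only 1 probe set of its own, which was high in 0 lines.

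**Figure D1:**
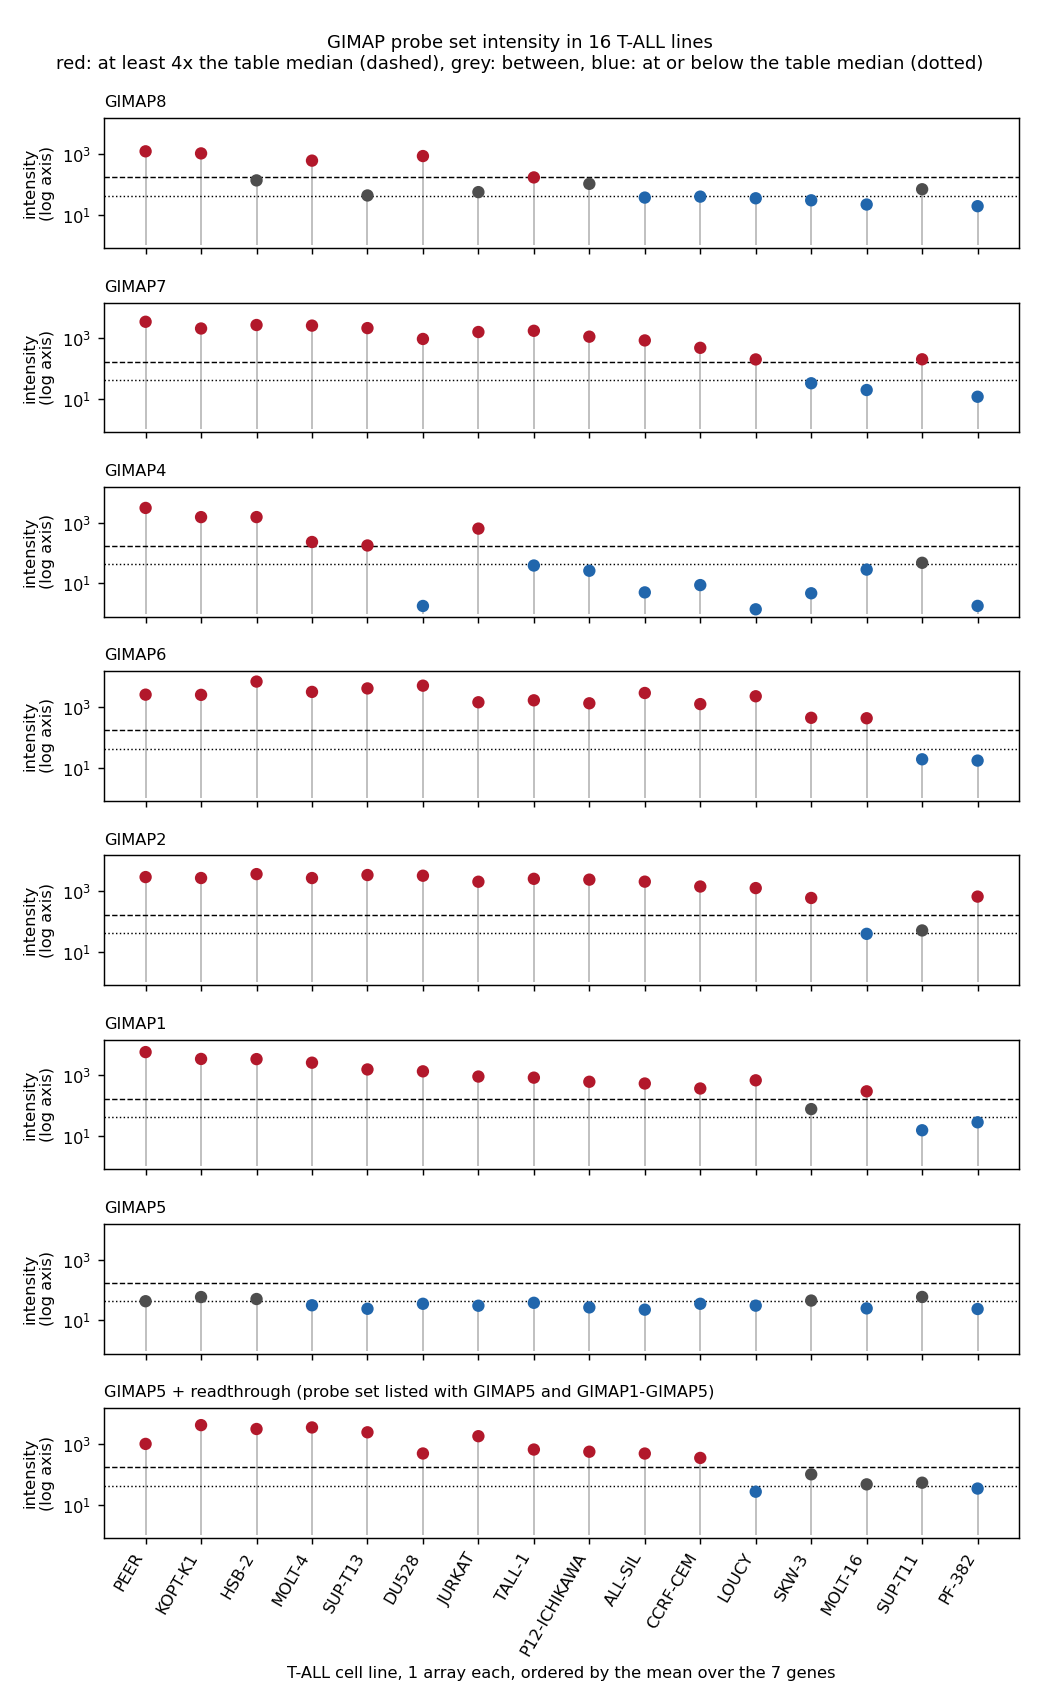
Intensity (log axis) of each GIMAP gene, 1 point per cell line and array, with the lines ordered by their mean over the 7 genes and the genes in chromosomal order. Dotted lines mark the table median of 42.3 and dashed lines 4 times that median. GIMAP2, GIMAP6, GIMAP7 and GIMAP1 are red in 13 or 14 lines, while GIMAP4 and GIMAP8 are red in 6 and 5. The bottom panel shows a probe set listed with both GIMAP5 and the GIMAP1-GIMAP5 readthrough.

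GIMAP2, the lipid droplet protein, was high in 14 lines. Its probe set read 3616 in HSB-2, 3372 in SUP-T13, 3203 in DU528, 2889 in PEER, 2689 in KOPT-K1, 2683 in MOLT-4, 2531 in TALL-1, 2378 in P12-ICHIKAWA, 2042 in ALL-SIL and 2029 in JURKAT. Each of these 10 lines lay within 0.23 log2 units of the next, so neighbours are not separable, although the ends of the run lie further apart. CCRF-CEM (1412) and LOUCY (1254) followed, then PF-382 (657.5) and SKW-3 (592.5). After a gap of 52.8% of the whole range came SUP-T11 (50.5) and MOLT-16 (39.0). GIMAP2 was therefore near background in SUP-T11 and MOLT-16. It was still high in PF-382, where 6 other members were at or below the table median, GIMAP5 by its own probe set. The SD of GIMAP2 was 1.89.

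GIMAP6, the partner of the autophagy protein, was at background in a different pair of lines. Its probe set read 6769 in HSB-2, 4968 in DU528, 4029 in SUP-T13, 3095 in MOLT-4, 2850 in ALL-SIL, 2513 in PEER, 2473 in KOPT-K1 and 2224 in LOUCY. It read 1636 in TALL-1, 1410.05 in JURKAT, 1304 in P12-ICHIKAWA and 1229 in CCRF-CEM, then 434.4 in SKW-3 and 420.03 in MOLT-16. SUP-T11 (18.7) and PF-382 (16.9) stood apart below a gap of 47.5% of the range. Each of the other 14 lines was high, and 9 of the 15 steps between neighbouring lines were under 0.23 log2 units. The second GIMAP6 probe set followed the first with a Pearson r of 0.998 over the 16 lines.

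GIMAP1, the member that keeps mature lymphocytes in mice, was measured by 5 probe sets that correlated with each other at r between 0.926 and 0.988. The brightest read 5823 in PEER, 3465 in KOPT-K1, 3420.3 in HSB-2 and 2609 in MOLT-4, then 1562 in SUP-T13 and 1353 in DU528. A middle range followed with 911.3 in JURKAT, 838.6 in TALL-1, 685.0 in LOUCY, 613.8 in P12-ICHIKAWA, 537.6 in ALL-SIL, 368.5 in CCRF-CEM and 297.4 in MOLT-16. The lowest lines were SKW-3 (77.3), PF-382 (28.4) and SUP-T11 (15.5). GIMAP1 thus fell more gradually across the lines than GIMAP6 or GIMAP2, with its largest gap, between MOLT-16 and SKW-3, covering 23.2% of the range. Of its 15 steps, 5 were under 0.23 log2 units.

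GIMAP7, the GTPase-stimulating partner of GIMAP2, was at or below the table median in 3 lines. Its probe set read 3497 in PEER, 2733 in HSB-2, 2615 in MOLT-4 and 2163 in SUP-T13. KOPT-K1 (2099.7), TALL-1 (1764) and JURKAT (1609) came next. It read 1129 in P12-ICHIKAWA, 949.6 in DU528, 849.8 in ALL-SIL and 485.03 in CCRF-CEM, with SUP-T11 (203.2) and LOUCY (201.2) not separable. SKW-3 (33.0), MOLT-16 (19.8) and PF-382 (11.9) lay below a gap of 30.8% of the range. SUP-T11, at background for GIMAP6 and GIMAP1, was therefore above the high level for GIMAP7.

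GIMAP4, the member linked to T-cell death in mice, had the largest SD of the 7, at 2.61, and was high in few lines. Its only probe set read 3027 in PEER, 1512 in HSB-2, 1508 in KOPT-K1, 630.8 in JURKAT, 228.6 in MOLT-4 and 175.7 in SUP-T13. SUP-T11 (47.2) lay just above the table median. The other 9 lines were below it, namely TALL-1 (38.4), MOLT-16 (28.2), P12-ICHIKAWA (25.9), CCRF-CEM (8.72), ALL-SIL (5.01), SKW-3 (4.69), PF-382 (1.80), DU528 (1.79) and LOUCY (1.39). Among these 9 lines an order is not meaningful, since all were near background.

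GIMAP8, the member with several GTP-binding domains, was high in 5 lines. Its brighter probe set read 1226 in PEER, 1048 in KOPT-K1, 856.3 in DU528 and 605.7 in MOLT-4, and after a gap of 33.9% of the range 169.6 in TALL-1. Intermediate values were 135.3 in HSB-2, 104.3 in P12-ICHIKAWA, 69.1 in SUP-T11, 55.6 in JURKAT and 43.2 in SUP-T13. The lowest were CCRF-CEM (39.5), ALL-SIL (36.8), LOUCY (34.9), SKW-3 (29.9), MOLT-16 (21.7) and PF-382 (19.1). A second GIMAP8 probe set lay between 5.05 and 22.9 and was at or below the table median in all 16 lines, so only the brighter one followed the gene across lines.

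GIMAP5, whose loss removes T cells in rodents, could not be resolved with its own probe set. That probe set ranged from 22.5 in ALL-SIL to 58.9 in SUP-T11 with a median of 33.2, and each of the 15 steps between neighbouring lines was under 0.23 log2 units. A further 3 probe sets were listed with both GIMAP5 and the GIMAP1-GIMAP5 readthrough, a transcript that joins both genes, and their signal cannot be assigned to either. The brightest read 4138 in KOPT-K1, 3467 in MOLT-4, 3083 in HSB-2, 2401 in SUP-T13, 1787 in JURKAT, 996.1 in PEER, 649.5 in TALL-1, 550.8 in P12-ICHIKAWA, 481.7 in DU528, 479.6 in ALL-SIL and 344.1 in CCRF-CEM. It read 99.3 in SKW-3, 52.6 in SUP-T11, 46.4 in MOLT-16, 33.7 in PF-382 and 26.5 in LOUCY. The shared probe set was thus high in 11 lines and had an SD of 2.30, against 0.32 for the probe set of GIMAP5 alone. The 3 shared probe sets correlated with each other at r between 0.855 and 0.997, while the brightest of them correlated with the probe set of GIMAP5 alone at r = 0.19.

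Set side by side, the lines differed in how much of the cluster they expressed. For each gene the log2 values were centred on the mean of the 16 lines and then averaged over the 7 genes of a line. That mean was 2.33 in PEER, 1.98 in KOPT-K1, 1.87 in HSB-2 and 1.43 in MOLT-4. PEER, KOPT-K1 and MOLT-4 had 6 high members each, all but GIMAP5, and HSB-2 had 5, all but GIMAP5 and GIMAP8. At the other end the mean was -2.74 in PF-382, -2.28 in SUP-T11, -2.06 in MOLT-16 and -1.78 in SKW-3. PF-382 had 6 members at or below the table median and 1 high member, GIMAP2. All members but GIMAP5 were therefore high in 3 lines, and no line had all 7 members at or below the table median. GIMAP5 entered these counts by its own probe set, which could not be resolved, so they do not show that it was low. The brightest probe set shared with the readthrough read 996.1 in PEER, 4138 in KOPT-K1, 3467 in MOLT-4, 3083 in HSB-2 and 33.7 in PF-382.

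The low lines were low in different members. In SUP-T11 GIMAP6 (18.7), GIMAP1 (15.5) and GIMAP2 (50.5) were near background, while GIMAP7 was at 203.2. MOLT-16 was near background for GIMAP2 (39.0) too, but it had GIMAP6 at 420.03 and GIMAP1 at 297.4, with GIMAP7 at 19.8. GIMAP6, GIMAP1 and GIMAP7 thus differed in opposite ways between these 2 lines, and GIMAP2 was low in both. PF-382 resembled SUP-T11 for GIMAP6 (16.9) and MOLT-16 for GIMAP7 (11.9), and only GIMAP2 (657.5) was high there. In SKW-3, GIMAP2 (592.5) and GIMAP6 (434.4) were high and GIMAP1 (77.3) and GIMAP7 (33.0) were not.

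Lines with several high members could still have others at or below the table median. DU528 had GIMAP6 at 4968 and GIMAP8 at 856.3, with GIMAP4 at 1.79. LOUCY had GIMAP6 at 2224 and GIMAP2 at 1254, with GIMAP4 at 1.39, GIMAP8 at 34.9 and the shared GIMAP5 probe set at 26.5. ALL-SIL had GIMAP6 at 2850, with GIMAP4 at 5.01 and GIMAP8 at 36.8. LOUCY and ALL-SIL each had 4 high members and 3 at or below the table median, with GIMAP5 counted by its own probe set. GIMAP4 was below the table median in all 3 of these lines, whereas in PEER, HSB-2 and KOPT-K1 it was high together with GIMAP1, GIMAP2, GIMAP6 and GIMAP7.

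The next comparison asked how far the members varied together across the lines. Each correlation is over the same 16 arrays, whose points share the array and the line, and is given as a description. Over the 21 pairs of members the median Pearson r was 0.57, and 11 pairs reached 0.5, against 4.22% of all pairs of genes that passed the filter on low values, whose median r was 0. Among pairs of genes that are neighbours on a chromosome, 17.6% reached 0.5, with a median r of 0.18. The filter asked for at least 3 lines above the table median, which 13308 genes and all 7 members passed. Without GIMAP5 the 15 remaining pairs had a median r of 0.68 and ranged from 0.36 to 0.90. With GIMAP5 read from the shared probe set, 17 of the 21 pairs reached 0.5 and the median r was 0.71.

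The closest pairs were GIMAP1 with GIMAP6 (r = 0.90) and GIMAP1 with GIMAP7 (r = 0.83). GIMAP2 followed GIMAP6 (0.77), GIMAP7 (0.76) and GIMAP1 (0.74), and GIMAP6 followed GIMAP7 (0.75). Spearman rank correlations of these pairs lay between 0.75 for GIMAP6 with GIMAP7 and 0.90 for GIMAP1 with GIMAP7. Since SUP-T11 with MOLT-16 or PF-382 stood apart in GIMAP2 and GIMAP6, r was computed again for each pair after dropping the 2 lines that lay most distant from the median of its first gene. Over the remaining 14 lines it was 0.78 for GIMAP1 with GIMAP6, 0.84 for GIMAP1 with GIMAP7, 0.62 for GIMAP1 with GIMAP2, 0.83 for GIMAP2 with GIMAP6, 0.95 for GIMAP2 with GIMAP7 and 0.78 for GIMAP6 with GIMAP7. When the 4 lines lowest in the cluster were left out together, 12 lines remained, and r was 0.57 for GIMAP1 with GIMAP6, 0.76 for GIMAP1 with GIMAP7, 0.70 for GIMAP1 with GIMAP2, 0.67 for GIMAP2 with GIMAP6 and 0.84 for GIMAP2 with GIMAP7. GIMAP6 with GIMAP7 was 0.33 over those 12 lines. The likeness of GIMAP6 to GIMAP7 and GIMAP1 thus rested in part on the low lines. The promoter run printed above stands in GIMAP7, GIMAP1 and GIMAP2, and whether it bears on these levels was not tested.

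For GIMAP4 and GIMAP8 the values depended on the partner and on which lines were used. Over all 16 lines GIMAP4 correlated with GIMAP1 at 0.68, GIMAP7 at 0.66 and GIMAP8 at 0.57, but with GIMAP6 at 0.38 and GIMAP2 at 0.36. Without HSB-2 and PEER, its 2 farthest lines, the value for GIMAP4 with GIMAP6 was 0.26 and that for GIMAP4 with GIMAP8 was 0.47. Without the 4 lines lowest in the cluster, GIMAP4 with GIMAP1 was 0.84, the highest of the 21 pairs over those 12 lines, GIMAP4 with GIMAP7 was 0.79 and GIMAP4 with GIMAP6 was 0.24. GIMAP8 correlated with GIMAP1 at 0.69, GIMAP7 at 0.66, GIMAP2 at 0.48 and GIMAP6 at 0.47, and its rank correlation with GIMAP2 was 0.73. Over the 12 lines GIMAP8 with GIMAP1 was 0.76 and GIMAP8 with GIMAP6 was 0.30. Distance in the cluster did not order these values, as GIMAP6 lies between GIMAP4 and GIMAP2 and followed GIMAP1 and GIMAP2 but not GIMAP4. Over the 6 pairs of neighbours in gene order the median r was 0.66, and over the other 15 pairs 0.48. These 2 medians are not a like comparison. Most pairs with GIMAP5, whose own probe set could not be resolved, fall among the other pairs. Over all pairs without GIMAP5, neighbours or not, the median was 0.68. GIMAP5 by its own probe set gave values between -0.06 with GIMAP2 and 0.47 with GIMAP8.

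**Figure D2:**
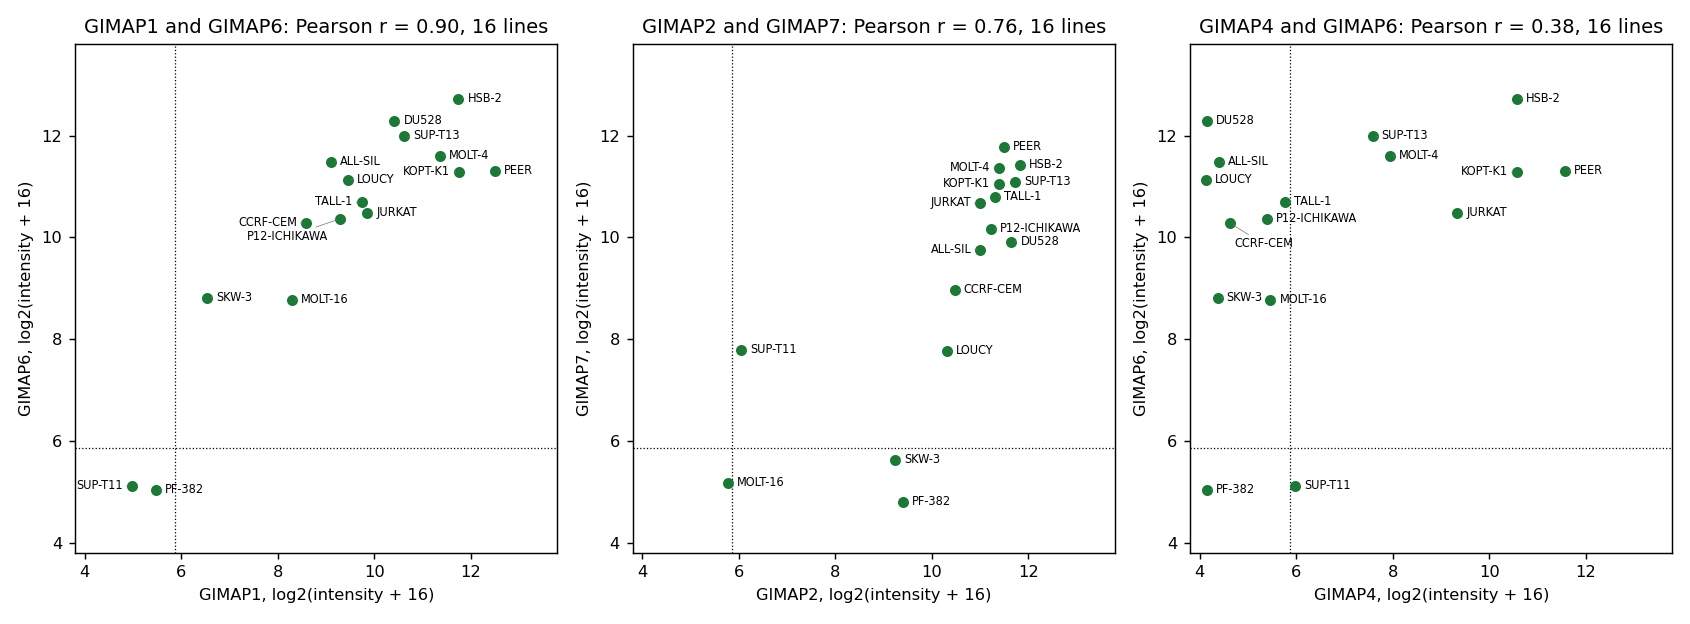
Values of log2(intensity + 16) for 3 pairs of members, 1 labelled point per line, with dotted lines at the table median. GIMAP1 and GIMAP6 fall together in SUP-T11 and PF-382, GIMAP2 and GIMAP7 separate the low lines differently, and DU528, ALL-SIL and LOUCY have GIMAP6 without GIMAP4.

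Genes on either side of the cluster showed little correlation with its members, but many of them had little signal to compare. In the RefSeq gene order the cluster runs GIMAP8, GIMAP7, GIMAP4, GIMAP6, GIMAP2, GIMAP1 and GIMAP5. The nearest measured genes before it are RARRES2, REPIN1, ZNF775, LOC728743 and LINC00996, and those after it are TMEM176B, TMEM176A, AOC1, KCNH2 and NOS3. Over the 70 pairs of a member and a flanking gene the median r was -0.03, and 1 pair reached 0.5, REPIN1 with GIMAP6 at 0.51. RARRES2, TMEM176B and TMEM176A were at or below the table median in all 16 lines, so their r has little content. LINC00996 and NOS3 were at or below it in 14 and 13 lines, and LOC728743 and AOC1 were high in 0 lines. Only REPIN1, KCNH2 and ZNF775 were high in more than 1 line, in 16, 6 and 5.

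REPIN1, a zinc finger gene, was high in every line, from 497.9 in SUP-T11 to 5253 in TALL-1, and its median r with the members was 0.25. LINC00996, a noncoding RNA next to GIMAP8, was at or below the table median in 14 lines and reached 390.7 in DU528. Its r with GIMAP8 was 0.498 and with GIMAP4 -0.01. On the far side, KCNH2, a potassium channel gene, ranged from 13.3 in KOPT-K1 to 1068 in JURKAT with a median r of -0.15. NOS3, the endothelial nitric oxide synthase gene, was high in only 1 line, MOLT-16, at 374.5, a line low in the cluster. It had r = -0.63 with GIMAP2, the lowest of its 7 values, with 13 lines at or below the table median. In SUP-T11, REPIN1 was the only high gene of the 10, and those on the far side lay between 3.33 for TMEM176B and 63.5 for NOS3.

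**Figure D3:**
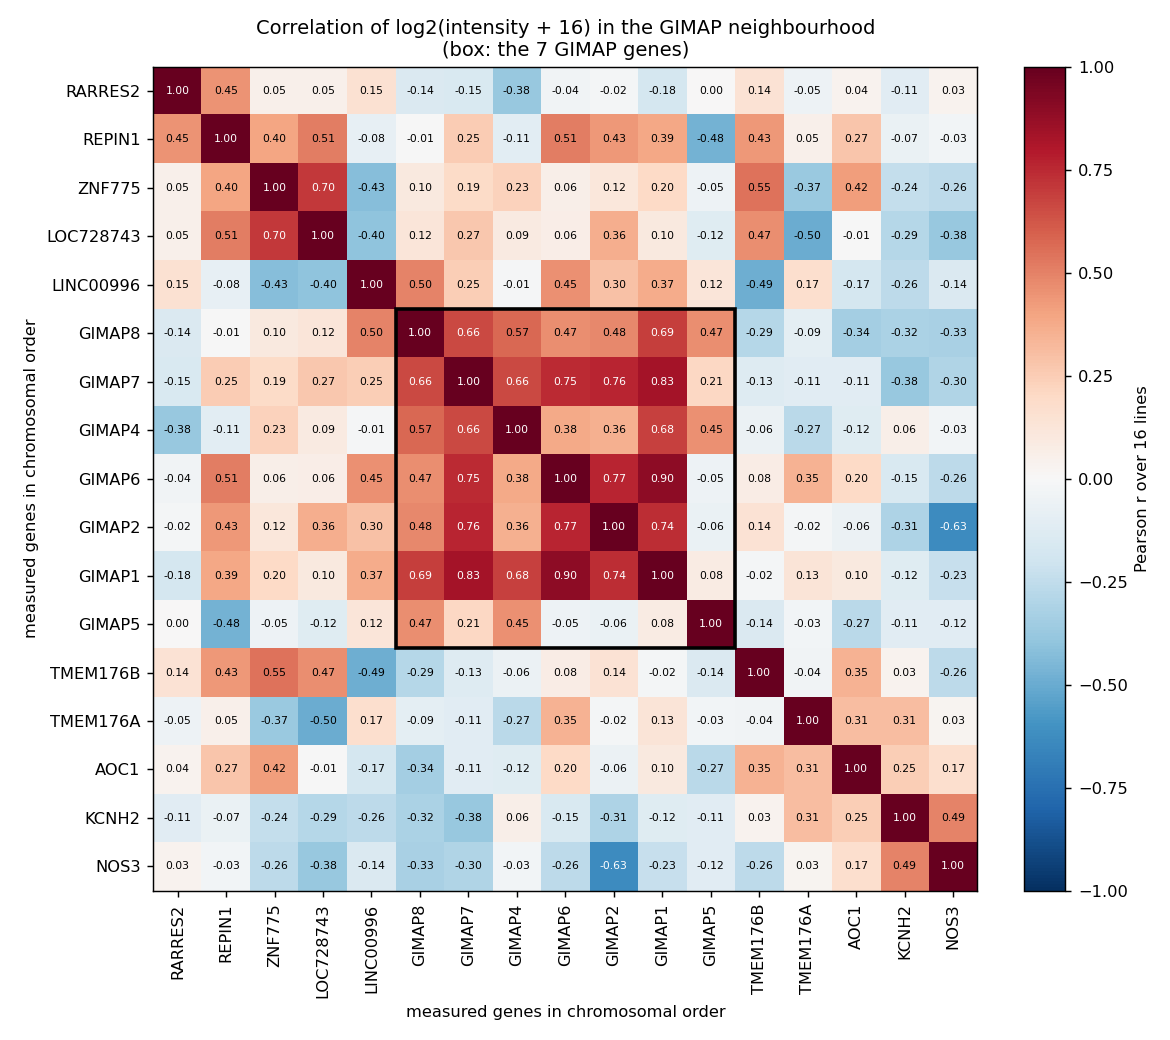
Pearson r over 16 lines between the 7 GIMAP genes (black box) and the 5 measured genes on each side, in chromosomal order, with red for positive and blue for negative values. The box is red except along GIMAP5, and the flanking genes show no such block with the members, with a median r of -0.03.

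Across the rest of the table, 77 of 13301 genes that are not members had a median r of at least 0.5 with the 7 members, 0.579% of them, and the median over all these genes was 0.02. The highest was CASP12, a caspase gene, at 0.64, but its intensity only ran from 11.5 in PF-382 to 61.6 in SUP-T13. UNC13D, which primes cytotoxic granules for release, was next at 0.63, with 80.7 in MOLT-16 and 363.6 in DU528. NHERF1, a scaffold protein under the membrane, had 0.62 and ranged from 719.8 in PF-382 to 4562 in HSB-2. RNF144A, a ubiquitin ligase gene, had the widest range of the leading 10, from 260.9 in SUP-T11 to 5813 in HSB-2, at a median r of 0.60. CD82, RUNDC3A, WASHC4, PHF12, RGS10 and OAS1 made up the rest of the leading 10, with median r between 0.58 and 0.62. RUNDC3A, like CASP12, stayed low, from 38.3 in LOUCY to 84.3 in JURKAT.

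The strongest opposite pattern belonged to ATG9B, an autophagy gene, with a median r of -0.71. It is also the first measured gene beyond NOS3, and it ranged from 9.01 in DU528 to 84.7 in MOLT-16. ZDBF2, an imprinted gene, had -0.68 and ranged from 3.71 in ALL-SIL to 345.8 in SUP-T11. LINC02450, NRTN and KCNIP4 followed at -0.66, -0.65 and -0.64. SUP-T11, MOLT-16 or PF-382 was the highest line for each of these 5 genes, which were chosen for running opposite to the cluster, so this is no separate result. ATG9B, LINC02450 and KCNIP4 were not high in any line, with highest values of 84.7, 68.7 and 116.2.

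Single members differed in whether another member was their closest gene. An r of at least 0.5 was reached by 3.32% of the other genes with GIMAP1, 6.38% with GIMAP2, 1.11% with GIMAP4, 2.14% with GIMAP5, 5.56% with GIMAP6, 2.21% with GIMAP7 and 1.29% with GIMAP8. Of the 6 other members, 5 reached it with GIMAP1 and 5 with GIMAP7, 3 with GIMAP4, 3 with GIMAP2, 3 with GIMAP6, 3 with GIMAP8 and 0 with GIMAP5. For GIMAP1, GIMAP6 and GIMAP7, 0 of the 13301 other genes exceeded the best r with a member, which was 0.90, 0.90 and 0.83. For GIMAP4, 7 genes exceeded its best value of 0.68, led by SIX3 (0.73), CA8 (0.73) and VIPR2 (0.72). For GIMAP8, 8 genes exceeded 0.69, led by CNOT6 (0.78), SAP30BP (0.76) and SUPT4H1 (0.72). For GIMAP2, 34 genes exceeded 0.77, led by TOX-DT (0.86), PARP14 (0.84) and CMAHP (0.84). For GIMAP5, 427 genes exceeded 0.47, led by GPRIN3, PLXNA3 and RNLS at 0.77, 0.76 and 0.76. Its own probe set was high in 0 lines and could not be resolved, so these values are not read as a trait of GIMAP5. The brightest probe set shared with the readthrough correlated with GIMAP7 at 0.89. The nearest other genes were CASP12, RBM22 and NHERF1 for GIMAP1, with r of 0.80, 0.77 and 0.77, and USP22, UBASH3B and SYPL1 for GIMAP6, with 0.85, 0.84 and 0.84. For GIMAP7 they were MASP1, RUNDC3A and ZNF333, with 0.75, 0.75 and 0.74. None of these last 3 was high in any line. MASP1 ran from 28.8 to 74.3, RUNDC3A from 38.3 to 84.3 and ZNF333 from 36.2 to 115.35, so their likeness to GIMAP7 has little content.

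PARP14 and UBASH3B, both with roles in lymphocyte signalling, show what such a likeness looked like. PARP14 read 25.9 in SUP-T11, where GIMAP2 was at 50.5, and 1674 in KOPT-K1. UBASH3B, a phosphatase gene that tempers signals of tyrosine kinases, read 5.05 in SUP-T11, where GIMAP6 was at 18.7, and 4929 in DU528, where GIMAP6 was at 4968.

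Gene lists for regulators, T-cell stages and other cell types were set beside the members. For each list gene, the median of its 7 correlations with the members was taken. The lists themselves are described by the median over all correlations of their genes with the members, pooled. Over all genes that passed the filter, the lower and upper quartiles of the median r of a gene were -0.13 and 0.17. These quartiles are of single genes, so they are only a rough scale for the pooled median of a list. The T cell markers had a median r of 0.23 over 9 genes, and 1 of the 9, CD7, reached 0.5. Without MOLT-16 the median was 0.13, and without the 4 lines lowest in the cluster 0.0779, both within those quartiles. CD7, an early surface marker of T cells, had a median r of 0.51 and ranged from 208.1 in PF-382 to 4917 in HSB-2. The receptor chain CD247 had 0.33 and the kinase LCK 0.32, and both were lowest in MOLT-16, at 589.3 and 941.7.

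The BCL2 family, regulators of cell death, had a median r of 0.20 over 7 genes, and 1 of the 7 reached 0.5. Without MOLT-16 the median was 0.13. The gene past 0.5 was BAK1, which promotes death at mitochondria, at 0.55, with a range from 311.9 in TALL-1 to 861.6 in SUP-T13. The protective BCL2L1 had 0.38 and BAX, a relative of BAK1, 0.22. BCL2L1 was lowest in SUP-T11 at 261.7 and highest in TALL-1 at 2421.

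The lists of T-cell stages lay near 0. Immature markers had a median r of 0.07 over 8 genes, with the stem cell factor receptor KIT at 0.32, IGFBP7 at 0.22 and the stem cell antigen CD34 at -0.21. KIT was highest in HSB-2 at 3613. Cortical thymocyte genes had -0.08 over 10 genes. Their most negative members were RAG2 (-0.45) and RAG1 (-0.32), the enzymes that cut receptor genes, both highest in CCRF-CEM at 552.6 and 3415, followed by CD1D at -0.11. Mature thymocyte and resting T cell genes had -0.02 over 8 genes, with SATB1 at -0.20, CCR7 at -0.16 and S1PR1 at 0.15. CCR7, a homing receptor, was highest in SUP-T11 at 3386, a line that lacked GIMAP6 and GIMAP1.

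The lists of regulators were close to 0 as well. NOTCH receptors and targets had a median r of 0.03 over 10 genes, with HES1 at 0.25, HEY1 at -0.19 and NOTCH1 at 0.18. HES1, a direct NOTCH target, ran from 15.99 in SUP-T11 to 3327 in PEER. The TAL1 complex list had 0.08 over 9 genes, with LMO2 at 0.21, LMO1 at 0.20 and GATA3 at 0.17.

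TAL1, the helix-loop-helix factor often switched on in T-ALL, fell into a high and a low set of 8 lines each, with a gap of 40.3% of its range between 48.5 and 425.1, so its relation to the members was read within each set. In the 8 high lines r was 0.68 for GIMAP4, 0.64 for GIMAP2 and 0.63 for GIMAP7, then 0.44 for GIMAP1, 0.40 for GIMAP8, 0.29 for GIMAP6 and 0.02 for GIMAP5. In the 8 low lines, where TAL1 was near background, r lay between -0.12 for GIMAP4 and 0.55 for GIMAP8. Over all 16 lines r with TAL1 lay between -0.33 for GIMAP8 and 0.15 for GIMAP4. How often other genes reach such values over 8 lines was not counted, so the values within a set are not read as a relation to TAL1. The ranges of the members overlapped between both sets. GIMAP6 ran from 16.9 to 6769 in the high lines and from 18.7 to 4968 in the low lines, and GIMAP1 from 28.4 to 3420.3 in the high lines and from 15.5 to 5823 in the low lines.

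**Figure D4:**
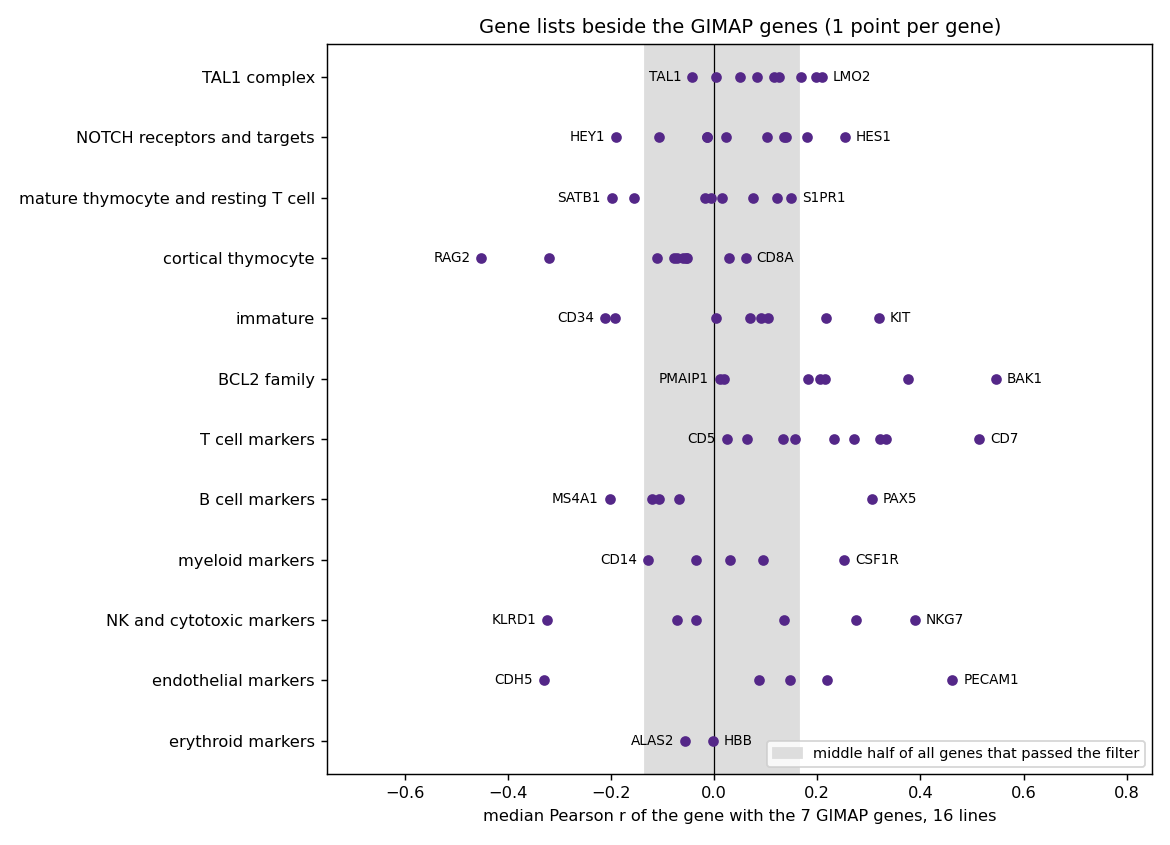
Median Pearson r with the 7 GIMAP genes over 16 lines, 1 point per gene of each list, with the lowest and highest gene named and the range between the quartiles of all filtered genes in grey. BAK1 and CD7 are the 2 points beyond 0.5, RAG2 is the lowest point at -0.45, and TAL1 lies at -0.04.

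The labelled cell type was checked against its markers. Each of the 9 T cell markers was high in at least 1 line, and their summed intensity ran from 12991 in MOLT-16 to 49593 in SUP-T13. CD2 was at or below the table median in 5 lines, CD5 in 3 and CD3E in MOLT-16, the other T cell markers in none. A single high line is a loose measure, met also by 5 of 6 NK and cytotoxic markers and 3 of 5 B cell markers. Of 5 myeloid markers only LYZ was high in a line, DU528, and their summed intensity ran from 97.9 in ALL-SIL to 486.8 in DU528, with CD14 and MPO at or below the table median in all 16 lines. B cell markers had a median r of -0.07 over 5 genes and a summed intensity of 336.6 in DU528 to 2358 in LOUCY, with PAX5 at 0.31, MS4A1 at -0.20 and EBF1 at -0.12, and PAX5 no higher than 49.1. CD79A, by contrast, was high in all 16 lines, from 215.1 in CCRF-CEM to 410.65 in P12-ICHIKAWA, and in LOUCY CD79B reached 1152 and EBF1 865.4. Myeloid markers had a median r of 0.04, with CSF1R at 0.25, CD14 at -0.13 and MPO at 0.10. Erythroid markers had -0.05 over 2 genes, with HBB at -0.00 and ALAS2 at -0.06, and a summed intensity of 28.2 in ALL-SIL to 305.9 in LOUCY.

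GIMAP genes are also expressed by NK cells and endothelium, so these markers were examined. NK and cytotoxic markers had a median r of 0.10 over 6 genes, with NKG7 at 0.39, KLRD1 at -0.32 and GNLY at 0.27. Their summed intensity ran from 132.0 in MOLT-4, a line with 6 high members, to 19194 in LOUCY. The LOUCY sum came mostly from GZMA, at 15841, while KLRD1 (25.6) and GZMB (15.65) had their lowest values in that line. Endothelial markers had a median r of 0.15 over 5 genes and a summed intensity of 70.1 in SUP-T11 to 4403 in DU528. This sum came mostly from PECAM1, an adhesion molecule shared with leukocytes, which ran from 26.7 in SUP-T11 to 4303 in DU528 with a median r of 0.46. CDH5, VWF and TEK were at or below the table median in all 16 lines, and KDR (median r 0.22) did not exceed 71.9.

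Measures of array quality were set beside the members. The 3′ to 5′ signal ratio of ACTB, which rises with RNA breakage, lay between 1.44 in DU528 and 2.03 in MOLT-4. Its r with the members ranged from -0.30 for GIMAP6 to 0.09 for GIMAP4. The r of the members with the array median ranged from -0.06 for GIMAP6 to 0.41 for GIMAP5. PF-382, lowest in the cluster, had a ratio of 1.90, and MOLT-4, with 6 high members, had the highest ratio. With the ratio taken out of every gene, the median r over pairs of members was 0.58. With each array centred on its median it was 0.57, as it was in the values as deposited.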

How the data were processed

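Total RNA of 16 T-ALL lines was measured on 1 array per line. The authors deposited probe set intensities on a linear scale, from 0.6 to 24485. Which software, background correction and scaling they used is not given in the sources used here, and no further normalization was applied. The platform annotation gave 1 gene for 41091 of the 54675 probe sets, several for 1801 and none for 11721, and 62 were controls. Of those with 1 gene, 41042 matched a RefSeq symbol, giving 19738 genes. Values were analysed as log2(intensity + 16), and the probe set of highest mean log2 represented a gene. A gene passed the filter where at least 3 lines exceeded the table median of 42.3. The number of arrays limits the precision.

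All lines form 1 group, so no group test was possible and no p-value is given. The members and gene lists were chosen with earlier results of these data known. Named are all members, the 5 nearest measured genes on each side, TAL1, up to 3 genes of each list with the largest absolute median r, the 10 highest and 5 lowest genes by median r, and the 3 genes most like each member. Other names were chosen after their values were seen. Of the list genes, those without a probe set of their own (1 for the TAL1 complex and for B cells, 2 for mature T cells and for erythroid cells) were not analysed here. Motifs were searched on both strands of 34943 RefSeq promoter windows of GRCh38.p14. Correlations were checked on simulated data. The work ran in Python 3.11.15 with pandas 2.3.3, numpy 2.4.6, matplotlib 3.10.9 and scipy 1.17.1. Alternatives were other pseudocounts, normalizations, probe set choices and filters, rank correlation, the ACTB ratio taken out, and leaving out lines.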

Additional observations from a re-analysis of the deposited data

How the results depend on the processing

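The 19 summary results were recomputed under the alternatives other than leaving out 1 line. This gave 205 values, each for 1 result under 1 alternative, and 193 of these values stayed within their yardstick. The yardstick was the jackknife standard error over lines for a median r, or 1.5 times for a count. It is wide, at 0.20 for the median r over pairs of GIMAP genes. The median r over pairs of GIMAP genes was 0.54 with a pseudocount of 1 and 0.64 with rank correlation, and without a single line it ranged from 0.47 (without PEER) to 0.69 (without DU528). Leaving out 1 line gave between 10 (without KOPT-K1) and 15 (without SUP-T11) pairs of at least 0.5, and 6 genes with an SD above 1 each time. That count was 5 with the mean of all probe sets of a gene, where GIMAP8 dropped below 1, and 4 without the 4 lines lowest in the cluster. With quantile normalization or centring on the array median, 0 lines had GIMAP2 at or below the table median, against MOLT-16 in the values as deposited. Of 819 further values for single genes and pairs, 53 moved beyond their yardstick, 29 of them upward. The 819 include r of each pair with 1 line left out. Their yardstick was computed from those same values, which could therefore hardly move beyond it, so 53 of 819 is no measure of stability. The sign changed for 17 of the 819, all pairs with GIMAP5 whose r was at most 0.0838 in size. It also changed for 29 summary values, counted with those that leave out 1 line, all medians at most 0.152 in size. The following alternatives were chosen after seeing the data. With GIMAP5 read from the probe set shared with the readthrough, 17 pairs reached 0.5. Without PF-382 and SUP-T11, the median r with flanking genes was -0.15. Without the 4 lines lowest in the cluster (SKW-3, MOLT-16, SUP-T11, PF-382) it was -0.20, and the list medians were -0.0949 for the TAL1 complex, 0.0779 for T cell markers, -0.16 for B cell markers and -0.0436 for endothelial markers. Of the other alternatives, rank correlation gave -0.11 for myeloid, -0.0735 for NK and cytotoxic and -0.20 for erythroid markers, and the probe set of highest SD gave -0.0173 for endothelial markers. With no filter on low values, 3 of the 10 genes most like the cluster were shared with the filtered set, the filter being the only change. The cause of the other shifts was not tested. Values at or below the table median carry no order, which limits GIMAP5, the 9 low lines of GIMAP4 and the low ends of the other members.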
